A study of Mus musculus with 7 samples.

Results

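Genes of iron uptake, storage and export were examined in vascular fragments of the mouse brain after injection of a growth factor into the cerebral ventricles. The set held 10 genes chosen by name: Tfrc, Trf, Slc11a2, Slc40a1, Fth1, Ftl1, Heph, Cp, Aco1 and Ireb2. A gene counted as measured where a probe set of the array was annotated to it alone, and the brightest such probe set was to stand for it. This held for 8 of the 10 genes, of 22180 genes measured in this way. Each of the 8 had exactly 1 such probe set, so brightness made no choice among them. All 8 passed the filter on dim probe sets. Trf, which encodes the plasma iron carrier transferrin, shared its 1 probe set with another gene. Ftl1, which encodes the ferritin light chain, shared all of its 6 probe sets with pseudogenes. No value is given for either.

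The mice were female, of the C57BL/6N strain per the study design and C57BL/6 per the sample labels, and 12 weeks old. They received PDGF-CC, a ligand of the receptor PDGFR-alpha, or phosphate-buffered saline (PBS) by intracerebroventricular (ICV) injection and were killed 4 hours later. Both groups thus underwent the injection itself. There were 4 PDGF-CC arrays and 3 PBS arrays, and untreated animals were not analysed here. The labels do not say whether each array held 1 mouse, and p-values therefore rest on the spread between arrays, part of which may be technical.

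Iron enters the brain across the capillary endothelium. The transferrin receptor on its luminal face takes up transferrin loaded with iron, the endosomal transporter encoded by Slc11a2 moves the iron into the cytosol, ferritin stores it and ferroportin (Slc40a1) exports it, helped by the copper oxidases hephaestin (Heph) and ceruloplasmin (Cp). The iron regulatory proteins encoded by Aco1 and Ireb2 bind iron-responsive elements in mRNAs when iron is scarce. Binding stabilises the mRNA of Tfrc and blocks translation of ferritin and ferroportin, so part of this control leaves no trace in mRNA levels, which are what an array measures.

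Tfrc had the largest difference between the groups among the 8 measured iron genes, and its upstream sequence is shown for that reason. The stretch runs from 250 bases before the first annotated start of Tfrc to its first 15 transcribed bases (RefSeq, GRCm38.p6, plus strand, chr16:32608646-32608910). The capitals mark ACGTG, the core of the hypoxia response element, at the start itself:
Tfrc: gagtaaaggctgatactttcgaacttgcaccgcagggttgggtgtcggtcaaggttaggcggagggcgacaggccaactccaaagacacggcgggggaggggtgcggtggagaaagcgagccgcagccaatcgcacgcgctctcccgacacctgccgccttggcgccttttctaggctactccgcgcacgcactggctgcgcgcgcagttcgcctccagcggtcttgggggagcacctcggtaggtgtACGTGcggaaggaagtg

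The same window was searched on both strands at every annotated start of the 6 iron genes with a promoter entry (Tfrc, Fth1, Ftl1, Cp, Aco1 and Ireb2). ACGTG was in that of 1 gene, Tfrc, and in 17.6% of all 32851 windows. The GC box GGGCGG was in windows of 5 genes (Tfrc, at another start than the one shown, Fth1, Ftl1, Aco1 and Ireb2) and in 33.8% of all windows. TGACTCA (AP-1), TGACGTCA (cyclic AMP response element) and CACGTG (E-box, which holds ACGTG within it) were in none of the 6, and in 4.70%, 1.71% and 6.46% of all windows. A gene was counted if any of its starts held a match, while the percentages are over single windows. Counts of genes therefore cannot be set against those percentages. A match is a description of the letters and not a binding site.

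Across the whole comparison no probe set passed the adjusted threshold. Arrays correlated with one another at 0.987 to 0.994, and the median difference over all 17734 tested probe sets was -0.0038 on the log2 scale. The sample descriptions carry numbers from 1 to 7, with 1, 2, 5 and 6 in PDGF-CC and 3, 4 and 7 in PBS. What these numbers stand for is not given, and differences are also given within numbers 1 to 4 (2 arrays against 2) and within 5 to 7 (2 against 1). Defining markers of endothelium were bright on every array, with list means of 10.6 to 10.8.

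Of the 8 iron genes, 0 passed the adjusted threshold in limma's test over all probe sets, where 0% of all probe sets did. At an unadjusted p under 0.05 there was 1, Tfrc, against 6.04% of all tested probe sets. Differences were positive for 4 genes and negative for 4, and their median was +0.010. In 1 gene, again Tfrc, every PDGF-CC array lay above every PBS array, as in 1.80% of all tested probe sets, and in 0 genes did every PDGF-CC array lie below every PBS array, as in 2.50%. The gene list was drawn up with the difference of Tfrc already known, so nothing is read from these counts.

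**Figure D1:**
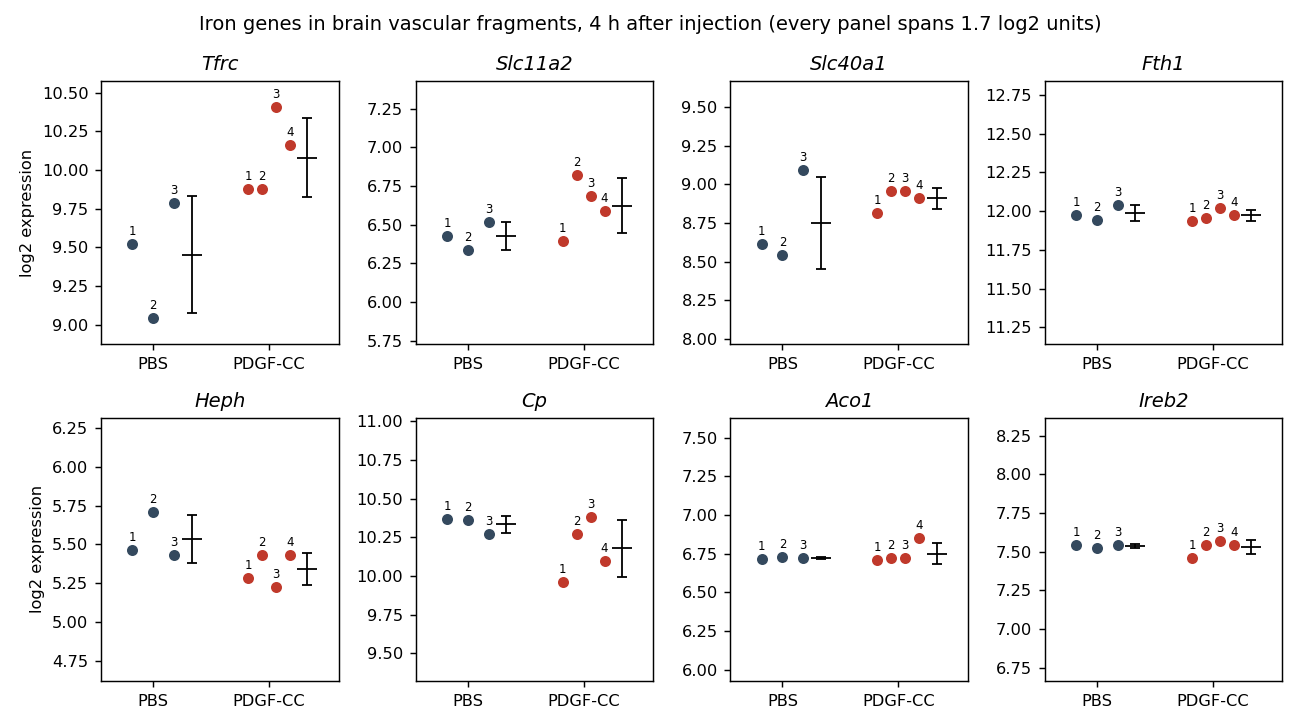
Log2 expression of the 8 iron genes on each array, by group. Points are arrays with their number, the bar beside each group is the mean ± SD, and every panel spans the same number of log2 units. Tfrc is separated between the groups with a mean of 10.08 against 9.45, while Fth1, Aco1 and Ireb2 are nearly level.

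Among the 8 measured iron genes, the uptake genes Tfrc and Slc11a2 had the highest differences. Tfrc, the transferrin receptor gene, had log2 values of 9.88, 9.88, 10.41 and 10.16 on PDGF-CC arrays 1 to 4 and of 9.52, 9.04 and 9.79 on PBS arrays 1 to 3. PDGF-CC arrays 1 and 2 held the same value, and the lowest PDGF-CC array stood 0.089 above PBS array 3. The groups did not overlap, but the gap between them was narrower than the spread within either group. The means were 10.08 ± 0.25 (SD, n = 4) and 9.45 ± 0.38 (SD, n = 3). The difference was +0.63 ± 0.20 (SE; adjusted p = 0.769, limma), or 1.55-fold, with a 95% interval of 1.11- to 2.16-fold.

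Of the 17734 tested probe sets, 117, Tfrc included, had a difference of at least this size in either direction, 24 of them positive, and 337 had a p as small or smaller. The residual SD of Tfrc was 0.310, against a median of 0.128 over all tested probe sets. PBS array 2 was lowest, and without it the difference was +0.42. Without PBS array 3 it was +0.80. It was +0.59 within numbers 1 to 4 and +0.49 within 5 to 7.

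Slc11a2, which encodes the divalent metal transporter DMT1 that releases iron from endosomes, had values of 6.40, 6.82, 6.68 and 6.59 after PDGF-CC and of 6.43, 6.33 and 6.52 after PBS. PDGF-CC array 1 lay within the PBS range and the other 3 above it. The difference was +0.20 ± 0.10 (SE; adjusted p = 0.769, limma), with a 95% interval of 0.966- to 1.36-fold. It was +0.13 without PDGF-CC array 2 and +0.27 without PDGF-CC array 1. It was +0.23 within numbers 1 to 4 and +0.12 within 5 to 7.

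**Figure D2:**
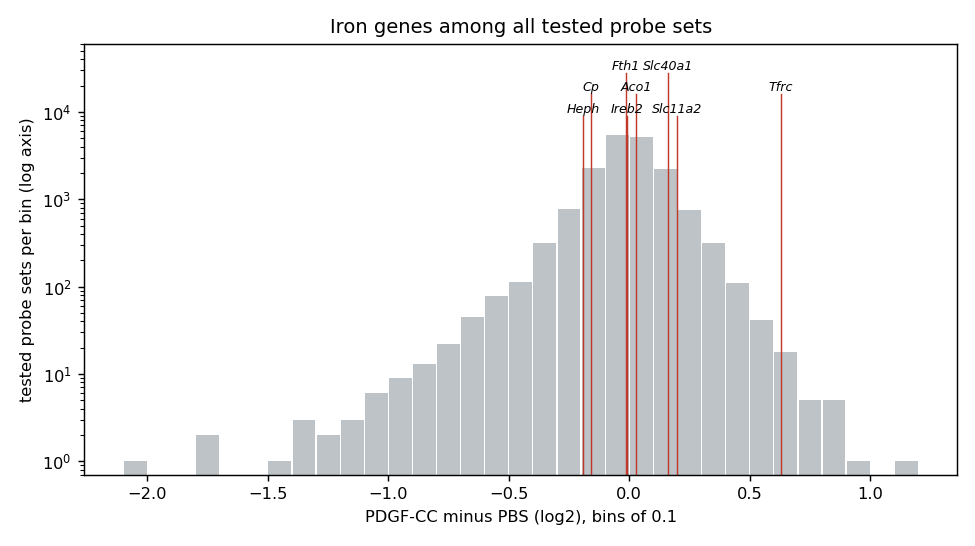
Histogram of PDGF-CC minus PBS differences (log2, bins of 0.1) over the 17734 tested probe sets, with counts on a log axis and red lines at the 8 iron genes. All lines but that of Tfrc lie between -0.19 and +0.20, and Tfrc stands at +0.63 in the right tail.

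The storage gene Fth1 had one of the smallest differences. It encodes the ferritin heavy chain, which oxidises iron for storage. Its values were 11.94, 11.95, 12.02 and 11.98 after PDGF-CC and 11.98, 11.94 and 12.04 after PBS, with means of 11.97 ± 0.035 (SD, n = 4) and 11.99 ± 0.051 (SD, n = 3). The groups overlapped, the difference was -0.014 ± 0.050 (SE; adjusted p = 0.949, limma) and the 95% interval ran from 0.912- to 1.07-fold. Its sign turned under 3 alternatives, among them repeated quantile normalization (+0.040).

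Export genes split in sign. Slc40a1, which encodes ferroportin, the one known cellular iron exporter, had values of 8.81, 8.96, 8.96 and 8.91 after PDGF-CC and of 8.62, 8.54 and 9.09 after PBS. The 4 PDGF-CC arrays all lay between PBS arrays 1 and 2 on the low side and PBS array 3 on the high side. The difference was +0.16 ± 0.13 (SE; adjusted p = 0.788, limma), with a 95% interval of 0.898- to 1.39-fold. PBS array 3 stood apart from the other PBS arrays. The difference was +0.33 without that array, +0.055 without PBS array 2, +0.31 within numbers 1 to 4 and -0.16 within 5 to 7.

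Heph, which encodes the membrane-bound ferroxidase hephaestin, had values of 5.28, 5.43, 5.23 and 5.43 after PDGF-CC and of 5.47, 5.71 and 5.43 after PBS. PDGF-CC arrays 1 and 3 lay below every PBS array, and arrays 2 and 4 held the same value as PBS array 3. The difference was -0.19 ± 0.091 (SE; adjusted p = 0.769, limma), with a 95% interval of 0.754- to 1.01-fold. It was -0.11 without PBS array 2, the highest array. Within numbers 1 to 4 it was -0.23 and within 5 to 7 it was -0.10.

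Cp, which encodes ceruloplasmin, a copper ferroxidase that astrocytes carry on their surface, had values of 9.96, 10.27, 10.38 and 10.09 after PDGF-CC and of 10.37, 10.36 and 10.27 after PBS. PDGF-CC arrays 1 and 4 were below every PBS array and array 3 above every one. The difference was -0.16 ± 0.10 (SE; adjusted p = 0.770, limma), with a 95% interval of 0.757- to 1.06-fold. Without PDGF-CC array 1 it was -0.086, and it was -0.25 within numbers 1 to 4 and -0.033 within 5 to 7. Of 8 astrocyte markers 3 were positive, with a median of -0.012 and the brightest, Aldoc and Gja1, at -0.012 and -0.14. Their signal summed on the linear scale ran from 1315 to 1744 in PDGF-CC and from 1367 to 1622 in PBS, and their part in the Cp values was not tested.

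The iron sensors had the narrowest intervals along with Fth1. Aco1 encodes iron regulatory protein 1, which doubles as the cytosolic aconitase. Its values were 6.71, 6.72, 6.72 and 6.85 after PDGF-CC and 6.71, 6.73 and 6.72 after PBS, so that PDGF-CC array 4 stood apart from the other 6. PDGF-CC arrays 2 and 3 and PBS array 3 held the same value. The difference was +0.028 ± 0.054 (SE; adjusted p = 0.902, limma; 95% interval 0.934- to 1.11-fold) and -0.0053 without PDGF-CC array 4. Ireb2 encodes iron regulatory protein 2, whose abundance is set mainly by protein breakdown. Its values were 7.46, 7.54, 7.57 and 7.54 after PDGF-CC and 7.54, 7.52 and 7.54 after PBS. Here PDGF-CC array 2 and PBS arrays 1 and 3 held the same value. The groups overlapped, and the difference was -0.0074 ± 0.048 (SE; adjusted p = 0.974, limma; 95% interval 0.919- to 1.08-fold), with a sign that turned under 5 alternatives, among them arrays centred on their median (+0.0025) and repeated quantile normalization (+0.0094).

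Further genes of iron handling were taken from a list of 53, of which 48 had a probe set of their own and 43 passed the filter. Of these 43, 0 passed the adjusted threshold in either direction by limma and 4 had an unadjusted p under 0.05, against 6.04% of all tested probe sets. Differences were positive for 16 and negative for 27, with a median of -0.033, against 48.4% positive over all tested probe sets. Every PDGF-CC array lay above every PBS array in 0 genes (1.80% of all tested probe sets), and below in 2, Steap1 and Steap2 (2.50%).

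Steap1 and Steap2, of a family of membrane proteins that includes reductases of iron and copper, had the lowest differences of the list. Steap1 had values of 5.14, 5.20, 4.73 and 5.22 after PDGF-CC and of 5.29, 6.38 and 5.44 after PBS. Its groups did not overlap, but PBS array 2 stood far above the rest, and the difference was -0.63 ± 0.27 (SE; adjusted p = 0.769, limma). Steap2 had values of 4.83, 5.30, 4.77 and 5.36 after PDGF-CC and of 5.45, 5.97 and 5.39 after PBS, a difference of -0.54 ± 0.21 (SE; adjusted p = 0.769, limma). Here too PBS array 2 was highest and the margin between the groups was 0.029. Steap3, the endosomal ferrireductase of the transferrin cycle, was at -0.16 ± 0.078 with overlapping groups. Steap4, added after its value was seen, was at -0.31 ± 0.25, also with overlapping groups. Differences of all 4 Steap genes were thus negative, where 48.4% of all tested probe sets had positive ones. Of the 7 tested genes of uptake and reduction, 6 were negative, with a median of -0.16.

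Markers of choroid plexus epithelium had lower values after PDGF-CC as well, and their order over the arrays is given beside the Steap values. Of 8 measured markers 7 were negative and 0 passed the adjusted threshold, with a median of -0.71, and in 6 every PDGF-CC array lay below every PBS array, as in 2.50% of all tested probe sets. The brightest were Ttr, the transthyretin gene, at -0.26, and Kl, the klotho gene, at -1.14. Their signal summed on the linear scale ran from 5650 to 7725 in PDGF-CC and from 8159 to 8851 in PBS. The mean log2 level was lowest on PDGF-CC array 3 (6.32) and highest on PBS array 2 (7.58), the same arrays that were lowest and highest for Steap1 and Steap2. The part of choroid plexus RNA in the Steap and Heph values was not tested. In such fragments fewer cells of a type and less RNA per cell cannot be told apart.

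**Figure D3:**
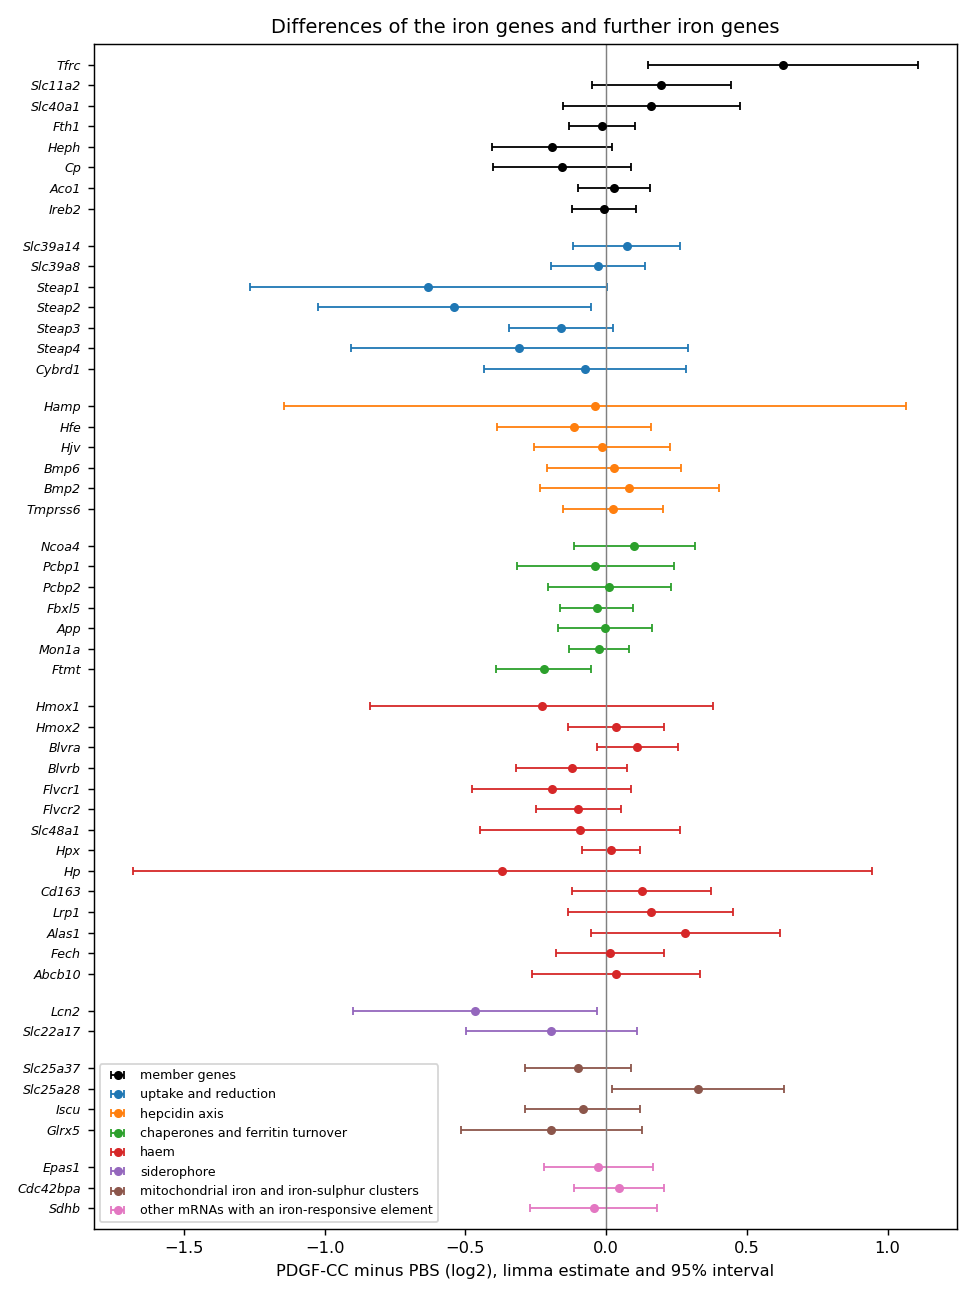
PDGF-CC minus PBS differences (log2) of the 8 iron genes in black and of 43 further iron genes coloured by role, each with the 95% interval of limma. Most intervals span 0. Tfrc lies at +0.63, and Steap1 and Steap2 lie at -0.63 and -0.54.

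Other further genes named by rule had smaller differences with overlapping groups. Lcn2, which encodes the siderophore-binding protein lipocalin 2, was at -0.47 ± 0.18 (SE), with 10.21, 10.52, 10.43 and 9.91 after PDGF-CC and 10.94, 10.86 and 10.40 after PBS. PBS array 3 lay among the PDGF-CC arrays. Within numbers 1 to 4 Lcn2 was at -0.53 and within 5 to 7 at -0.23. Neutrophils carry Lcn2 too, and 3 of their 4 tested markers were negative, with a median of -0.57 and the brightest, S100a9 and S100a8, at -0.64 and -0.74. Within numbers 1 to 4 S100a9 and S100a8 were at -0.73 and -0.90. Within 5 to 7 their signs turned, to +0.028 and +0.16. Of the 6 measured markers, those below the filter had positive differences. The summed linear signal of all 6 ran from 289 to 991 in PDGF-CC and from 462 to 1720 in PBS. The part of neutrophils in the Lcn2 values was not tested. Slc25a28, the mitochondrial iron importer mitoferrin-2, was at +0.33 ± 0.13, with 8.03, 7.97, 7.59 and 7.87 after PDGF-CC and 7.74, 7.38 and 7.49 after PBS. Ftmt, the mitochondrial ferritin gene, was at -0.22 ± 0.071 with means of 4.38 and 4.61, close to the filter of 4.14. Adjusted p was 0.769 for Lcn2, Slc25a28 and Ftmt alike (limma).

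The remaining roles had no direction common to all of them. Haem genes were positive in 8 of 14 cases with a median of +0.015, and Hmox1, the inducible haem oxygenase gene, was at -0.23 ± 0.26. Genes of the hepcidin axis were positive in 3 of 6 cases with a median of +0.0040. Chaperones and ferritin turnover genes were positive in 2 of 7 cases with a median of -0.024. Mitochondrial iron and iron-sulphur cluster genes were positive in 1 of 4, with a median of -0.092. Siderophore genes, Lcn2 included, were positive in 0 of 2, with a median of -0.33. Of the 3 tested genes listed as other mRNAs with an iron-responsive element, Epas1 was at -0.029, Cdc42bpa at +0.045 and Sdhb at -0.043. Whether the mouse mRNA of Sdhb carries the element was not checked. Hmox1, Epas1, Cdc42bpa and Sdhb were named after their values were seen.

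Genes whose pattern over the 7 arrays was most like that of Tfrc were Cpox (Pearson r = 0.992), Hs6st1 (0.990), Oxct1 (0.979), Synpo2 (0.974) and Mn1 (0.971), taken as the 5 highest among 15582 genes. Cpox encodes coproporphyrinogen oxidase, Hs6st1 a heparan sulphate sulphotransferase and Oxct1 an enzyme of ketone use. Correlations this high are a description of 7 arrays that share a platform and a normalization, and were picked as the highest of many. Cpox had means of 7.07 ± 0.069 (SD, n = 4) after PDGF-CC and 6.90 ± 0.12 (SD, n = 3) after PBS, with PDGF-CC array 2 equal to PBS array 3. Its difference was +0.17 ± 0.074 (SE; adjusted p = 0.769, limma). A gene picked for so close a likeness to Tfrc shares the sign of the Tfrc difference, so nothing is read from this value. Among the iron genes r with Tfrc ran from -0.88 for Heph to 0.74 for Slc40a1, with 0.67 for Slc11a2.

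Tfrc is abundant in brain endothelium, whose markers had a median difference of -0.024, with 4 of 10 positive, and a summed linear signal that ran from 19900 to 22294 in PDGF-CC and from 20869 to 23609 in PBS. The brightest were Slc2a1, the glucose transporter gene, at -0.16, and Flt1, a VEGF receptor gene, at -0.020. Taken relative to the mean of the endothelial markers on each array, a comparison chosen after seeing the data, Tfrc differed by +0.62 ± 0.15 (SE; adjusted p = 0.593, limma).

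Microglial markers had higher values after PDGF-CC, with 6 of 7 positive, a median of +0.27 and 0 past the adjusted threshold. In 2 of them, Cx3cr1 and Trem2, every PDGF-CC array lay above every PBS array, as in 1.80% of all tested probe sets. The brightest of the 7 were Cx3cr1, the fractalkine receptor gene, at +0.53, and P2ry12, a purinergic receptor gene, at +0.32. Their summed linear signal ran from 8180 to 8591 in PDGF-CC and from 5308 to 7679 in PBS. PBS array 2 was lowest in these markers (mean log2 level 9.16), as it was in Tfrc and Slc40a1. Erythroid markers, of interest because red cell precursors are rich in Tfrc, had list means of 4.13 to 4.35 over the arrays, about the filter of 4.14, and 3 of the 5 measured passed it. Their summed linear signal ran from 101 to 110 in PDGF-CC and from 96.2 to 102 in PBS. The part of either cell type in the Tfrc difference was not tested. Of the other marker lists, pericytes had a median of -0.15 (1 of 8 positive), oligodendrocytes of +0.074 (5 of 7), border-associated macrophages of -0.069 (3 of 6) and neurons of +0.051 (5 of 6).

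**Figure D4:**
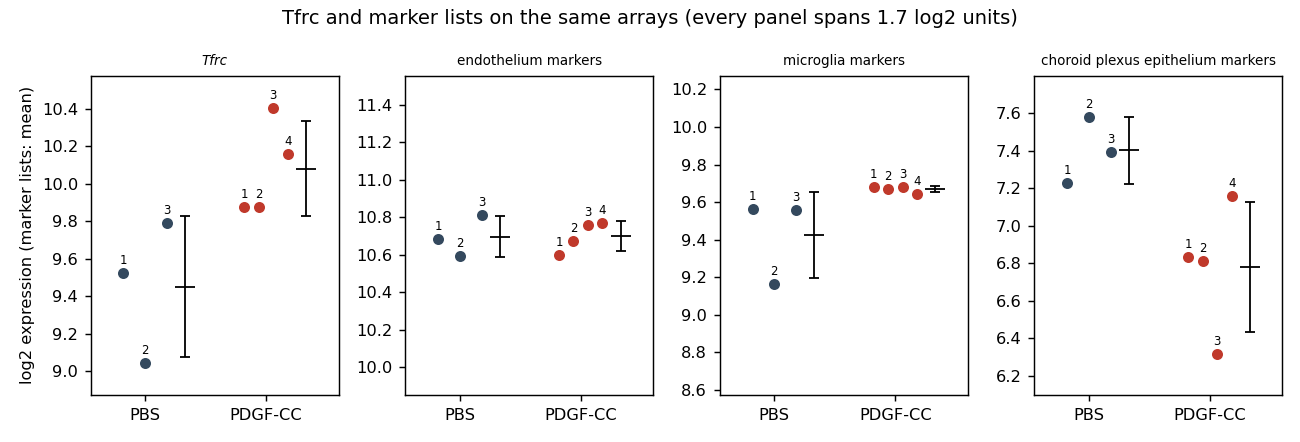
Log2 expression of Tfrc and mean log2 expression of endothelial, microglial and choroid plexus markers on each array, with array numbers and the mean ± SD of each group, all panels spanning the same number of log2 units. Endothelial means overlap between the groups (10.6 to 10.8), while microglial and choroid plexus means do not. Microglial means are 9.64 to 9.68 in PDGF-CC and 9.16 to 9.56 in PBS, lowest on PBS array 2. Choroid plexus means are 6.32 to 7.16 in PDGF-CC and 7.23 to 7.58 in PBS, highest on that same array.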

How the data were processed

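RNA of brain vascular fragments was measured on 7 arrays. The deposited values are on the log2 scale and, per the submitters' processing notes, came from Affymetrix Expression Console with RMA, and limma is named as well. Versions, settings and the build are not given in these sources. RMA equalises the distributions of arrays, so an overall shift in RNA cannot be seen. Arrays carry no read depth, and their number limits the precision.

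Gene symbols came from the platform annotation. Of 33793 probe sets, 23521 had 1 symbol, 1814 several and 8458 none. Among probe sets with a symbol, the dimmest 30 percent by mean (up to 4.14 on the log2 scale) were left out, and the remaining 17734 were tested. Groups were compared with limma 3.58.1 (lmFit, eBayes) under R 4.3.3, 2-sided, without covariates. P-values were adjusted by the Benjamini-Hochberg method over all tested probe sets, with a threshold of 0.05. The fit was tested on simulated data. Figures were drawn with matplotlib 3.10.9.

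The member genes, the further iron genes and the marker lists were chosen with earlier results of these data known. The rule for named genes took all members, the 6 further iron genes with the smallest unadjusted p, the 5 genes whose values over the arrays correlated best with Tfrc, and the brightest pair of the endothelial, choroid plexus, microglial, astrocyte and neutrophil lists, with the other marker lists given as counts. Steap4 was added after its value was seen. Alternatives were other filters, normalizations, weights, priors, covariates and blocks, another probe set rule and leaving out each array. A comparison relative to endothelial markers was chosen after seeing the data.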

Additional observations from a re-analysis of the deposited data

Results flagged for a closer look

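The Aco1 level of 6.85 on PDGF-CC array 4 stood apart from the other 3 arrays of its group, which lay between 6.71 and 6.72. Of the groups of 4 examined, those of the 8 iron genes and the 6 further genes named by rule, it was the only one with such a gap. About 1 in 20 such groups shows one by chance if values are normally distributed and free of ties. Here PDGF-CC arrays 2 and 3 held the same Aco1 value, so that rate is only a rough guide.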

How the results depend on the processing

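None of the 8 iron genes and none of the further iron genes passed the adjusted threshold under any of 17 alternatives (limma). Over all probe sets the count was 3 when the dimmer 50 percent of probe sets were left out, 3 with arrays centred on their median, 3 with the trended and robust prior, 1 with repeated quantile normalization and from 0 to 1 over the arrays left out in turn, against 0 as reported. The difference of Tfrc ran from +0.42 to +0.80 over 18 alternatives (adjusted p from 0.412 to 0.847), and the median of the iron genes from -0.0089 to +0.043. Filters, the prior and the probe set rule cannot move the Tfrc difference, which stayed at +0.63, so there only its adjusted p could change. Signs of single iron genes turned in 3 whose differences were near 0, and the cause was not tested. Fth1 was at +0.040 after repeated quantile normalization and +0.0025 once the description number was a covariate. Leaving out single arrays moved it between -0.037 (PBS array 2) and +0.013 (PBS array 3). Ireb2 was at +0.0094 with repeated quantile normalization, +0.0025 with centred arrays, +0.00079 with array weights and +0.0045 with that covariate. Leaving out single arrays moved Ireb2 between -0.021 (PDGF-CC array 3) and +0.016 (PDGF-CC array 1). Aco1 was at -0.0053 with the replicate block and moved between -0.0053 (PDGF-CC array 4 left out) and +0.043 (PDGF-CC array 1 left out). Whether the title numbers pair the arrays was not settled: deviations of same-numbered arrays correlated at 0.163, 0.107 and 0.084, and 5 of 6 arrays correlated best with their own number, a hint from the data and not from the labels. With the replicate block Tfrc was at +0.60 (adjusted p = 0.654, limma), the median of the iron genes at -0.0089, and 0 probe sets, 0 iron genes and 0 further iron genes passed. That block gives PDGF-CC array 4, which has no partner, no weight.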
